A study of Mus musculus with 6 samples.

Results

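The 10 genes described here are the insulin-like growth factor (IGF) genes Igf1 and Igf2, the receptor genes Igf1r and Igf2r, and the IGF-binding protein genes Igfbp2, Igfbp3, Igfbp4, Igfbp5, Igfbp6 and Igfbp7 of the mouse. They were chosen by name. Peaks of chromatin accessibility from 6 ATAC-seq libraries were merged where they shared 1 bp or more, and the regions that overlapped the RefSeq span of each gene or the 20 kb on either side were taken. This gave 79 of the 89410 regions of the whole series. The windows of the neighbouring genes Igfbp2 and Igfbp5 shared 3 of the regions, so the genes together counted 82. Regions are numbered here in genomic order within the window of their gene, and coordinates are those of GRCm38.p6, the assembly that mm10 also names.

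ATAC-seq marks open chromatin by letting the transposase Tn5 insert sequencing adapters into DNA that is not packed in nucleosomes. The study compared an immortalized mouse osteoblast line with a floxed Fam20c gene, called OB Fam20c f/f and labelled as control, with OB Fam20c KO, a daughter line in which a lentivirus had delivered Cre recombinase to delete the gene. Fam20c encodes the Golgi kinase that phosphorylates many secreted proteins. Each group had 3 libraries from 50000 nuclei each, transposed for 30 min at 37 °C, and both groups grew in the same serum-containing medium. Each group is therefore 1 line, the KO line differs from its parent by virus infection as well as by genotype, and the labels do not say whether the replicates were separate cultures. If they were not, the p-values measure only the spread between these libraries, which may be technical.

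IGF1 and IGF2 are secreted growth factors that osteoblasts make and that are stored in bone matrix. IGF1R is the receptor tyrosine kinase through which they signal, whereas IGF2R, the cation-independent mannose 6-phosphate receptor, carries IGF2 to lysosomes. Binding proteins hold IGFs outside the cell and can block or prolong their action. Igf2 and Igf2r are imprinted in the mouse, and peak lists do not tell the parental copies apart. In bulk chromatin, fewer cells with an open site and a less open site in each cell cannot be told apart either.

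The lists held 64033, 62781 and 74797 peaks in f/f replicates 1 to 3 and 64141, 64582 and 32958 in KO replicates 1 to 3. KO replicate 3 thus stood apart, and the counts and calls are given with it and without it. A region missing from a list only failed the q-value threshold of 0.05 in that library. At Fam20c itself, the window of the span and 20 kb on either side held 6 regions. A peak was present in 3, 2 and 3 of them in f/f and 4, 1 and 1 in KO, which does not check the deletion. Of 10 osteoblast marker genes, 8 had a region within 3 kb of the gene in every library and 4 of the 8 with a listed start had a peak there in all 6, while Bglap and Ibsp, which mark mature mineralizing osteoblasts, had no region. Of 12 markers of blood cells, endothelium, epithelium, muscle, fat and cartilage, 7 had a region in every library, Epcam had none, and 1 (Cd68) of the 8 with a listed start had a peak there in all 6.

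The number of the 79 regions with a peak overlapped between the groups. A peak was present in 53, 56 and 64 of the 79 regions in the f/f libraries, a mean of 57.7 ± 5.69 (SD, n = 3). It was present in 61, 59 and 31 in the KO libraries, a mean of 50.3 ± 16.8 (SD, n = 3). KO minus f/f was -7.33 regions with all libraries, less than the SD of the KO libraries. Over the other 5 libraries it was 2.33 regions, less than the SD of the f/f libraries but more than that of the 2 KO libraries (1.41). The share of the 79 regions with a peak was 67.1%, 70.9% and 81.0% in f/f and 77.2%, 74.7% and 39.2% in KO, against 69.0%, 68.8%, 82.7%, 69.6%, 70.9% and 35.8% of all regions in the same order. All 6 libraries shared 28 regions (35.4%, against 33.4% of all regions), and a further 14 had a peak in every library except KO replicate 3 (17.7%, against 19.2%). The shared regions were wide, with a median of 1152 bp against 503 bp in the rest, as among all regions (1113 and 462 bp). Of the 79 regions, 56 lay in the span of their gene, 13 upstream and 10 downstream of it, and 11 had a peak in 1 library only. The 3 regions shared by Igfbp2 and Igfbp5 are counted there as downstream of Igfbp2, although Igfbp5 regions 2 and 3 among them lie in the span of Igfbp5.

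A region was called group-specific if every library of one group listed it and 0 libraries of the other group did. By that rule 3 of the 79 regions were only in f/f (3.80%, against 3.75% of all 89410 regions), 2 of them at Igf2 and 1 in Igf2r. One region, in Igf1, was only in KO (1.27%, against 0.179% of all regions). When KO replicate 3 was left out, the f/f-only count was again 3 (3.80%, against 3.82%), and 6 regions were only in KO (7.59%, against 2.93%). Those were the same Igf1 region and 1 each at Igf2r, Igfbp3 and Igfbp7 and 2 at Igfbp5. The f/f-only share was close to the background, so that the number of such regions is no result about these genes.

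**Figure D1:**
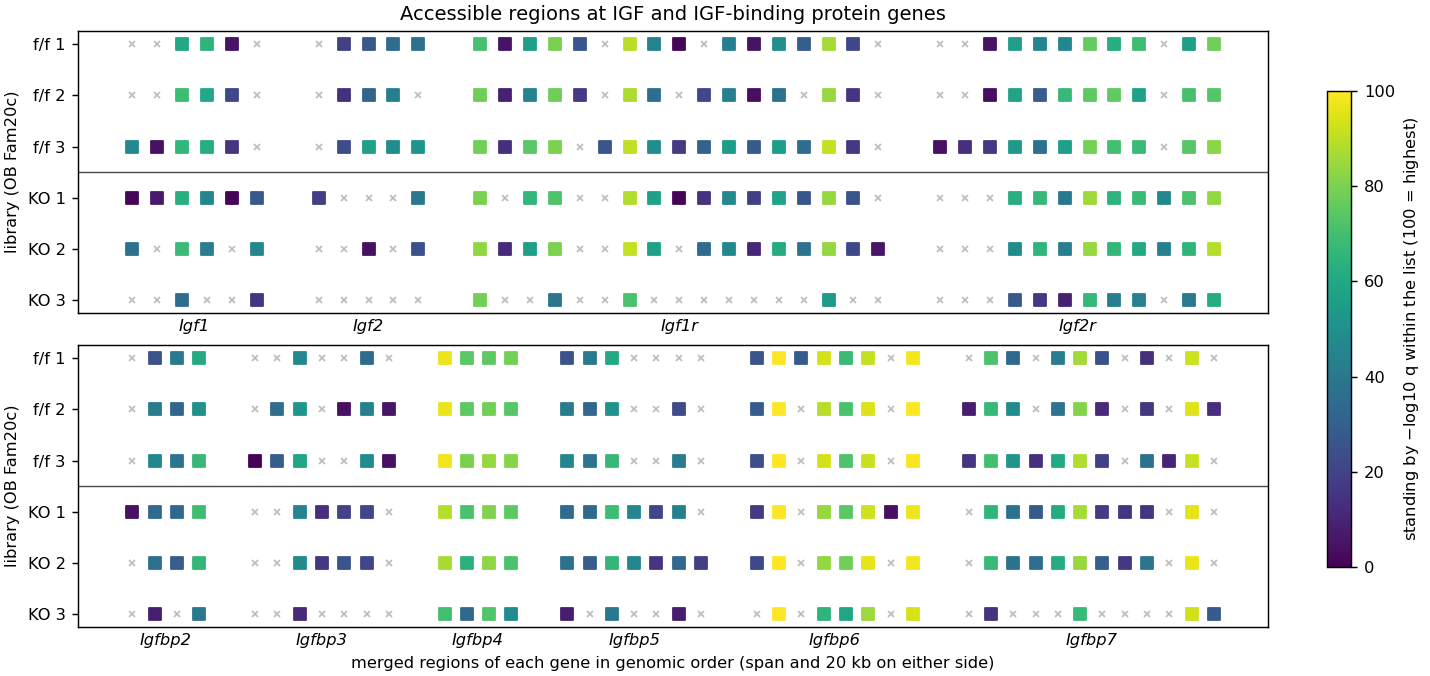
Each column is 1 merged region in genomic order within its gene and each row 1 library. Colour gives the standing of the peak by −log10 q within its own list (percentile, 100 the highest) and a cross marks no peak. The Igfbp4 columns are filled in all 6 libraries, and KO replicate 3 has the most crosses. Of the 5 Igf2 columns, 4, 3 and 4 are filled in the f/f rows and 2, 2 and 0 in the KO rows.

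To compare peaks between lists of unequal length, each peak was given a standing, which is its percentile by the peak caller's −log10 q within its own list, with 100 the highest. A second standing, called here the shared standing, ranks only the 29849 regions that had a peak in all 6 lists. It was tested with limma across all of these regions with Benjamini-Hochberg adjustment. When a library was left out, the shared standing was ranked anew among the regions with a peak in every remaining list. Without KO replicate 3 these were 46989 regions, so the points with and without that library are on different scales. Of the 28 shared regions of the IGF genes, 4 had a higher shared standing in KO (14.3%, against 12.6% of all shared regions) and 3 a lower one (10.7%, against 11.3%). The median difference, KO minus f/f, was 0.25 points over the 28 and -0.24 over all shared regions. Over the other 5 libraries, 42 regions were tested, of which 4 were higher (background 11.6%) and 4 lower (background 10.9%). By the fold over the local background in place of −log10 q, 0 of the 28 passed in limma in either direction (background 0.754% higher and 0.63% lower). An unadjusted p under 0.05 was found for 6 of them (21.4%), near the 20.1% of all shared regions. Over the other 5 libraries, 1 was higher by fold (background 3.4%) and 1 lower (background 2.93%). All 7 calls by −log10 q were lost when peaks were ranked within the whole lists, where 0.121% of all shared regions were higher and 0.181% lower. Called regions were picked by these same standings, so values that do not overlap between the groups there add no support to a call.

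Among the ligands, and among the 10 genes, Igf2 was the only one whose counts did not overlap between the groups over all 6 libraries. The f/f libraries had a peak in 4, 3 and 4 of the 5 Igf2 regions and the KO libraries in 2, 2 and 0. Leaving out KO replicate 3 did not bring an overlap (mean over all libraries 3.67 ± 0.577 against 1.33 ± 1.15, SD, n = 3; exact permutation test over the 20 assignments of libraries, two-sided, p = 0.1, the smallest it can give). This was 1 of 10 genes with every f/f count above every KO count, a pattern that 9.94% of 18160 protein-coding genes showed (10.0% without KO replicate 3). In the 20 to 500 kb on either side of the Igf2 gene, 79 other regions had a peak in 56, 58 and 67 in f/f and in 58, 55 and 28 in KO, so that there KO replicate 1 lay among the f/f libraries and KO replicate 2 just below them. The Igf2 difference, KO minus f/f, was -2.33 regions, and with equal numbers of peaks from each list it was -0.33.

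Igf2 spans chr7:142650768-142666816 on the minus strand, and RefSeq lists 4 starts for it. Windows from 250 bases before to 50 after each start were compared with the regions. The 2 starts farthest upstream had a peak in no library. The start at base 142658804 had a peak in all 3 f/f libraries and in KO replicate 2, and the start at base 142657496 only in the 3 f/f libraries. An f/f-only peak was found at 0.349% of 21230 protein-coding start windows. The 250 bases before the last 2 starts are shown because these are the starts at which the f/f and KO lists differed. Capitals in this and the other sequences mark the motifs that were searched on both strands, TGANTCA (AP-1), CANNTG (E-box), TGTGGT (Runx) and CTTTGAT (TCF/LEF). They occurred in 6.75%, 66.2%, 14.0% and 3.21% of the 250 bases before 32817 RefSeq starts, and a match is only a description of the letters. The 2 Igf2 stretches, at chr7:142658805-142659054 and chr7:142657497-142657746 on the minus strand, hold no match, and both are rich in G and C (68.8% and 66.0%, against a median of 52.4% over all windows).
Igf2, start at base 142658804: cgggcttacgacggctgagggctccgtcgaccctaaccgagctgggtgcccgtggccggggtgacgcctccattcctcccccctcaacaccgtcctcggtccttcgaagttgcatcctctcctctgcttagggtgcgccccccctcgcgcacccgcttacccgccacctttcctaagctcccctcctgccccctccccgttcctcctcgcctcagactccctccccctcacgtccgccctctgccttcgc
Igf2, start at base 142657496: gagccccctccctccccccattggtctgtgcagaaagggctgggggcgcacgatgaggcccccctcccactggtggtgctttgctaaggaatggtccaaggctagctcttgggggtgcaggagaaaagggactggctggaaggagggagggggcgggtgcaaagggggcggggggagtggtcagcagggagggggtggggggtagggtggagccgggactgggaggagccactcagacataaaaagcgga

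The peak over the start at base 142657496 is Igf2 region 2 (chr7:142657137-142657529). Its standing was low, 19.2, 13.8 and 22.7 in f/f replicates 1 to 3, with a fold over the local background of 3.97, 2.97 and 3.45. Region 3 (chr7:142658711-142659570), over the next start upstream, stood at 27.0, 31.7 and 56.7 in f/f and at 4.64 in KO replicate 2. Apart from f/f replicate 3 at region 3, these peaks were in the lower part of their lists, and the 1 KO peak stood below every f/f peak. Region 4 (chr7:142672059-142672746) lay 5243 bp upstream of the first listed start, in no gene span, and had the highest mean standing of the 5 Igf2 regions. It was f/f-only, with standings of 35.1, 42.7 and 48.7 and folds of 6.08, 5.55 and 6.91. With equal numbers of the highest peaks from each list, no list kept regions 2 and 4. The 2 remaining regions were not missing from KO. Region 5, which is 8621 bp upstream, had a peak in f/f replicates 1 and 3 and in KO replicates 1 and 2 (standings 36.9, 51.8, 40.2 and 24.3), and region 1, within the gene, had one only in KO replicate 1.

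Igf1, on the plus strand at chr10:87858265-87937047, had 6 regions. A peak was present in 3, 3 and 5 of them in f/f and in 6, 4 and 2 in KO, so the groups overlapped. Region 3 (chr10:87859661-87861221), which covers the listed start at base 87861111, was the only one with a peak in all 6 libraries. It stood at 60.0, 68.5 and 65.6 in f/f and at 63.3, 67.7 and 35.3 in KO, and its shared standing differed by 1.40 points (SE 4.62, limma adjusted p = 0.853; without KO replicate 3, 3.02 points, adjusted p = 0.723). The start of Igf1 was thus open in both groups, with no difference detectable in these lists. The 250 bases before it, chr10:87860861-87861110 on the plus strand, are shown because Igf1 was the only gene with a peak at its start whose stretch held AP-1 letters. These begin 37 bases before the start, and 1 E-box begins 157 bases before it.
Igf1, start at base 87861111: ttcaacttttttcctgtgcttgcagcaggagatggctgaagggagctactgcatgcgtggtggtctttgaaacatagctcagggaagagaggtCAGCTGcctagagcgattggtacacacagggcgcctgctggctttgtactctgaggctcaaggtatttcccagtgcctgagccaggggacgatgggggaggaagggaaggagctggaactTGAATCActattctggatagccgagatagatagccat

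Away from the start, 2 Igf1 regions differed between the groups. Region 6 (chr10:87927149-87927669), inside the gene and 66038 bp downstream of the start, was the 1 region found only in KO. It stood at 27.1, 46.2 and 15.5 in KO replicates 1 to 3, with folds of 5.22, 8.04 and 3.85, and was absent from the 3 f/f lists. Because it held in KO replicate 3, it did not depend on leaving out that library. At a minimum −log10 q of 5 it was lost from KO replicate 3, where its −log10 q was 4.80, and with equal numbers of peaks it was not group-specific. Region 4 (chr10:87879674-87880763), 18563 bp into the gene, stood at 64.7, 59.8 and 62.0 in f/f and at 46.0 and 42.1 in KO replicates 1 and 2, with no peak in KO replicate 3. Over the other 5 libraries its shared standing was lower in KO (-19.9 points, SE 5.58, adjusted p = 0.0314), and all f/f values lay above both KO values. By fold the difference was -30.6 points (limma adjusted p = 0.0527), which did not pass. With equal numbers of peaks from each list, region 4 became f/f-only.

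**Figure D2:**
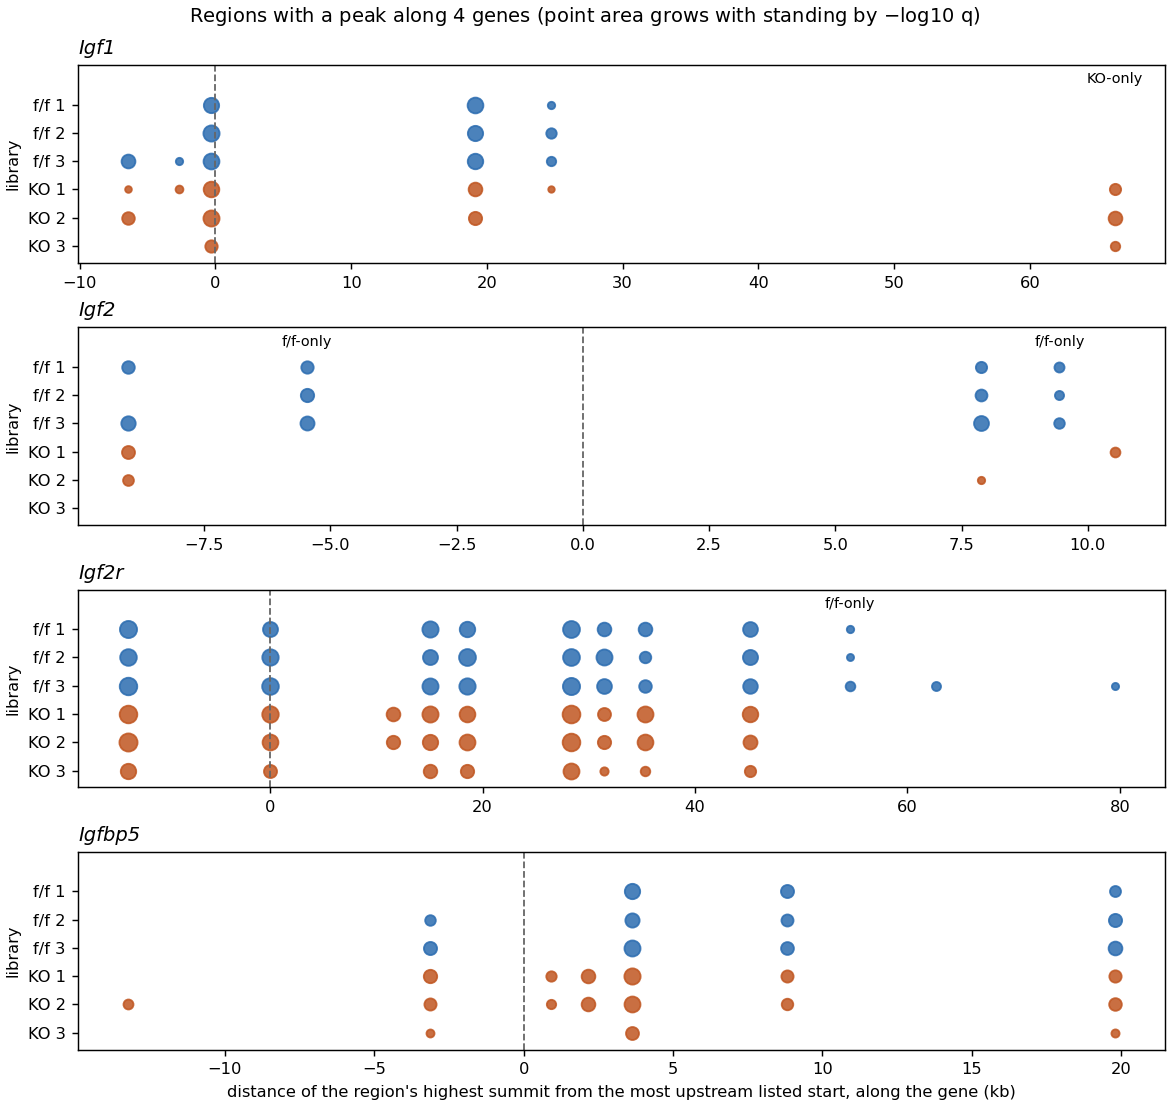
Points show the peaks of each library along Igf1, Igf2, Igf2r and Igfbp5, with the distance of the region's summit from the most upstream listed start in kb on the x axis and 1 row per library (blue f/f, orange KO). Point area grows with the standing by −log10 q. The KO-only point of Igf1 lies in the gene, and 2 of the columns of Igf2 hold blue points only.

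The receptor Igf1r, at chr7:67952257-68233668 on the plus strand, was the longest gene and held 17 regions. A peak was present in 14, 13 and 15 of them in f/f and in 13, 14 and 4 in KO. The first 2 KO libraries lay within the f/f range, and KO replicate 3 lay far below it. The region with the highest mean standing was region 7 (chr7:68021490-68022585), 69233 bp into the gene, at 89.7, 87.7 and 90.5 in f/f and 88.5, 91.2 and 71.3 in KO, and its shared standing did not differ detectably (-1.30, SE 3.42, adjusted p = 0.811, and 1.22, adjusted p = 0.638, without KO replicate 3).

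Region 1 (chr7:67950385-67953473) covers the Igf1r start and was the widest of the 79, at 3089 bp. Its shared standing was 39.4, 54.2 and 46.8 in f/f and 57.2, 64.4 and 76.7 in KO, so that every KO value lay above every f/f value. The difference was 19.3 points (SE 6.07, limma adjusted p = 0.0483). Without KO replicate 3 it was 9.62 points (adjusted p = 0.0864), which did not pass, and the call was also lost without f/f replicate 1, 2 or 3 or KO replicate 2 (adjusted p = 0.128, 0.0555, 0.121 and 0.106). By fold the difference was 18.0 points (SE 11.1, adjusted p = 0.393). Region 8 (chr7:68030729-68031381), which KO replicate 3 lacked, was higher in KO without that library by 18.4 points (SE 5.01, adjusted p = 0.0276). By fold region 8 did not pass (23.0 points, limma adjusted p = 0.114). The 250 bases before the Igf1r start, chr7:67952007-67952256 on the plus strand, had the highest G and C content of the members' starts at 77.6%, with 42 CG pairs and none of the 4 motifs.
Igf1r, start at base 67952257: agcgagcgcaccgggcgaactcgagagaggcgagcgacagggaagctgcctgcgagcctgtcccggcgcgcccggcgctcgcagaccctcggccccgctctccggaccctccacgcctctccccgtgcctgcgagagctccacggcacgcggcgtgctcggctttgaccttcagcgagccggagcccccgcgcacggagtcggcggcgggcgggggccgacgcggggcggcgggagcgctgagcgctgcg

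Igf2r, at chr17:12682406-12769706 on the minus strand, held 12 regions, with a peak in 9, 9 and 11 regions in f/f and in 9, 9 and 8 in KO. A peak in all 6 libraries was present at 8 of them. The lncRNA gene Airn, which starts inside Igf2r and silences it on the paternal copy, lies in the same window. Region 11 (chr17:12768694-12770208) covers the Igf2r start and did not differ detectably, at a shared standing of 21.2, 40.0 and 36.9 in f/f and 40.3, 27.6 and 35.5 in KO (1.77, SE 5.94, adjusted p = 0.855, and 2.93, adjusted p = 0.765, without KO replicate 3). The 250 bases before that start, chr17:12769707-12769956 on the minus strand, held 4 E-boxes, the most of the 14 listed starts of the 10 genes.
Igf2r, start at base 12769706: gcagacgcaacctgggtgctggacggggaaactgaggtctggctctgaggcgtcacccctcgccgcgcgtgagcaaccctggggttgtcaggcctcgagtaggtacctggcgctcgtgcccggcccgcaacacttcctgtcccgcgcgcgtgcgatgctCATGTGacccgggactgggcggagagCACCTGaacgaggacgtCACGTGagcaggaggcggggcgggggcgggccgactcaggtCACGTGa

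Inside Igf2r, the shared regions that passed were higher in KO. Region 6 (chr17:12737906-12738595) went the other way and did not pass. Its shared standing was 11.6, 34.0 and 12.5 in f/f and 5.11, 5.46 and 5.54 in KO (-14.0 points, SE 5.52, limma adjusted p = 0.0976). Without KO replicate 3 the difference was -15.2 points (adjusted p = 0.200). Region 7 (chr17:12740969-12742779) covers the start of Airn. Its shared standing was 49.5, 48.6 and 47.5 in f/f and 68.4, 66.0 and 63.2 in KO, with no overlap, a difference of 17.3 points (SE 3.91, adjusted p = 0.0136). It also passed without KO replicate 3 (12.3 points, adjusted p = 0.00844). The adjusted p was just above 0.05 without f/f replicate 3 (0.0522), KO replicate 1 (0.0520) or KO replicate 2 (0.0556). By fold the difference was 26.5 points (SE 7.07, adjusted p = 0.103), in the same direction.

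Igf2r region 5 (chr17:12734201-12734778), in the body of the gene 34928 bp downstream of the start, had a shared standing of 11.5, 3.70 and 3.07 in f/f and 31.7, 27.8 and 11.3 in KO. KO replicate 3 lay just below f/f replicate 1, so the groups overlapped. The difference was 17.5 points (SE 5.30, adjusted p = 0.0420), which did not pass without f/f replicate 1, 2 or 3 or KO replicate 1 or 2 (adjusted p = 0.0595, 0.132, 0.140, 0.104 and 0.119). Without KO replicate 3 it was 36.2 points (adjusted p = 0.00463), and this was the 1 region of the IGF genes that then also passed by fold in that direction (33.6 points, adjusted p = 0.0239). Region 12 (chr17:12782597-12783762), 12891 bp upstream of the start, had the highest mean standing of the gene. It was higher in KO without KO replicate 3 (12.1 points, adjusted p = 0.0257), but not over all 6 libraries (14.2 points, adjusted p = 0.102). By fold it passed neither without KO replicate 3 (6.15 points, limma adjusted p = 0.449) nor over all 6 libraries (0.83 points, adjusted p = 0.967). Region 3 (chr17:12714904-12715348), far into the gene, was f/f-only at standings of only 4.83, 3.60 and 16.9, and region 10 (chr17:12758024-12758315) had a peak only in KO replicates 1 and 2, at 46.2 and 43.4. In f/f, region 3 lay near the foot of its lists, whereas region 10 stood in the middle of the KO lists.

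**Figure D3:**
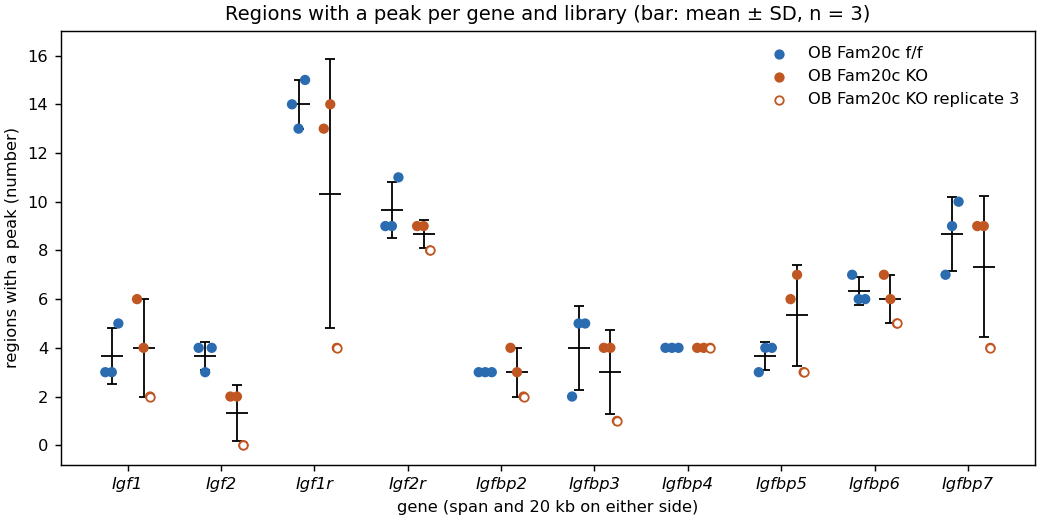
The number of regions with a peak is plotted for each gene and library, with bars for the mean ± SD (n = 3) and an open point for KO replicate 3. Igf2 is the gene whose blue points (3 or 4) all lie above its orange points (0 to 2).

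Most binding protein genes had their peaks away from their listed starts. All 6 libraries had a peak at the start of Igf1, Igf1r, Igf2r and Igfbp7, as at 50.9% of the 21230 protein-coding start windows, and no library had one at the listed starts of Igfbp2, Igfbp3, Igfbp4, Igfbp5 and Igfbp6, as at 43.3%. At Igfbp4, Igfbp5 and Igfbp6 all 6 libraries still had a peak within 3 kb of a start. At Igfbp3, 5 had one, and at Igfbp2 only 1, KO replicate 1. The spans of Igfbp4 and Igfbp3 reach farther upstream than their listed starts. Igfbp4 region 2, with a peak in all 6 libraries, covers the upstream end of its span (base 99040005). Igfbp3 region 6, which KO replicate 3 lacked, begins just beyond the upstream end of its span (base 7215498). Of the 2 listed starts of Igfbp2, the second carries AP-1 letters beginning 39 bases before it and 1 E-box, and it is shown because no library had a peak there, unlike at the Igf1 start with its AP-1 letters (chr1:72825137-72825386, plus strand).
Igfbp2, start at base 72825387: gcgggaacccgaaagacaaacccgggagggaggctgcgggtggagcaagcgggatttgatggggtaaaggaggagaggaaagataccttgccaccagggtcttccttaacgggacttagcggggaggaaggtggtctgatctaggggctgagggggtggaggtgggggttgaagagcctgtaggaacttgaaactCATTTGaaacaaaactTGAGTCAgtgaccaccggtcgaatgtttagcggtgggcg

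Igfbp7 encodes a secreted protein that binds IGFs weakly and lies at chr5:77349240-77408045 on the minus strand. It had 12 regions, with a peak in 7, 9 and 10 in f/f and in 9, 9 and 4 in KO, and the groups overlapped. Region 11 (chr5:77407335-77408311) covers its start and had the highest mean standing of the gene. The shared standing was 83.7, 89.3 and 78.6 in f/f and 91.4, 92.7 and 92.0 in KO, so that all KO values lay above all f/f values. The difference was 8.21 points (SE 2.48, adjusted p = 0.0422), and without KO replicate 3 it was 5.23 points (adjusted p = 0.0622). It did not pass either without f/f replicate 1 or 3 or KO replicate 1 or 2 (adjusted p = 0.0941, 0.109, 0.0794 and 0.119). By fold it was 2.28 points (SE 3.82, adjusted p = 0.748). Region 8 (chr5:77381528-77382122), within the gene, had a peak only in KO replicates 1 and 2, at low standings of 15.2 and 16.2. The 250 bases before the start, chr5:77408046-77408295 on the minus strand, held none of the 4 motifs at 74.0% G and C.
Igfbp7, start at base 77408045: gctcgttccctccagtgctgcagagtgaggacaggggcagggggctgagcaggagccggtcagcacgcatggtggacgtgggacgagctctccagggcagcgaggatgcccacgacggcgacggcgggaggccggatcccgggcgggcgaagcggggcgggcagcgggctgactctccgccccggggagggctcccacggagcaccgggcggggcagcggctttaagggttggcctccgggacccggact

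Igfbp4, at chr11:99040005-99052655 on the plus strand, encodes a binding protein of bone that the protease PAPP-A cuts. The 4 regions of its window had a peak in all 6 libraries, the only gene of the 10 for which this held. Regions 1 and 4 lie in the spans of the neighbours Top2a and Tns4. The strongest was region 1 (chr11:99023425-99024899), 16345 bp upstream of the Igfbp4 start, which covers the start of Top2a, the DNA topoisomerase gene of dividing cells. Its shared standing was 93.8, 93.3 and 94.9 in f/f and 76.1, 71.8 and 66.5 in KO. Every KO value lay below every f/f value (-22.5 points, SE 2.54, adjusted p = 0.000757). It passed without each library in turn, without KO replicate 3 at -12.7 points (adjusted p = 0.000371). By fold the difference was -13.9 points (SE 3.48, adjusted p = 0.0907), which did not pass. Region 1 is nearer to another gene's start than to that of Igfbp4, and which gene it serves was not tested.

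Region 2 of Igfbp4 (chr11:99039677-99040660), which ends 584 bp before the listed start, had a shared standing of 46.3, 48.7 and 50.6 in f/f and 39.4, 25.4 and 28.2 in KO, again without overlap. It was lower in KO (-17.6 points, SE 4.96, adjusted p = 0.0328), but did not pass without KO replicate 3 (adjusted p = 0.0768). Nor did it pass without f/f replicate 1, 2 or 3 or KO replicate 2 (adjusted p = 0.0631, 0.0891, 0.112 and 0.120). By fold the difference was -20.6 points (SE 7.88, limma adjusted p = 0.206). Regions 3 and 4 of Igfbp4, within and downstream of the gene, did not pass (9.53 points, adjusted p = 0.191, and -8.74 points, adjusted p = 0.215), nor did they without KO replicate 3 (4.39 points, adjusted p = 0.335, and -5.47 points, adjusted p = 0.286). The 4 regions of Igfbp4 thus did not all have differences of 1 sign.

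Igfbp6, at chr15:102144186-102149512 on the plus strand, encodes a binding protein with a preference for IGF2. It is the shortest of the 10 genes and had the densest window, with 8 regions, of which 7, 6 and 6 had a peak in f/f and 7, 6 and 5 in KO. Region 2 (chr15:102135658-102136835), which covers the start of the neighbour Spryd3, was among the strongest of every list at standings of 99.6 to 99.9. The region nearest to the Igfbp6 start, region 3 (chr15:102143318-102143514), lay 672 bp upstream and had a peak only in f/f replicate 1, at a standing of 28.6. Within the gene, region 4 (chr15:102145139-102146082), 953 bp downstream of the start, had a shared standing of 86.1, 77.1 and 83.5 in f/f and 66.8, 64.8 and 61.5 in KO. All KO values lay below all f/f values (-17.9 points, SE 3.25, adjusted p = 0.00559), and the call held without each library in turn, at -10.4 points without KO replicate 3 (adjusted p = 0.00563). By fold the difference was only -4.59 points (SE 4.05, adjusted p = 0.533). Region 5, 2713 bp downstream of the start, had values of 35.1, 41.3 and 33.8 in f/f and 46.0, 53.2 and 55.0 in KO, the opposite direction, and missed the threshold (14.7 points, adjusted p = 0.0516, and 9.76 points, adjusted p = 0.0948, without KO replicate 3).

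**Figure D4:**
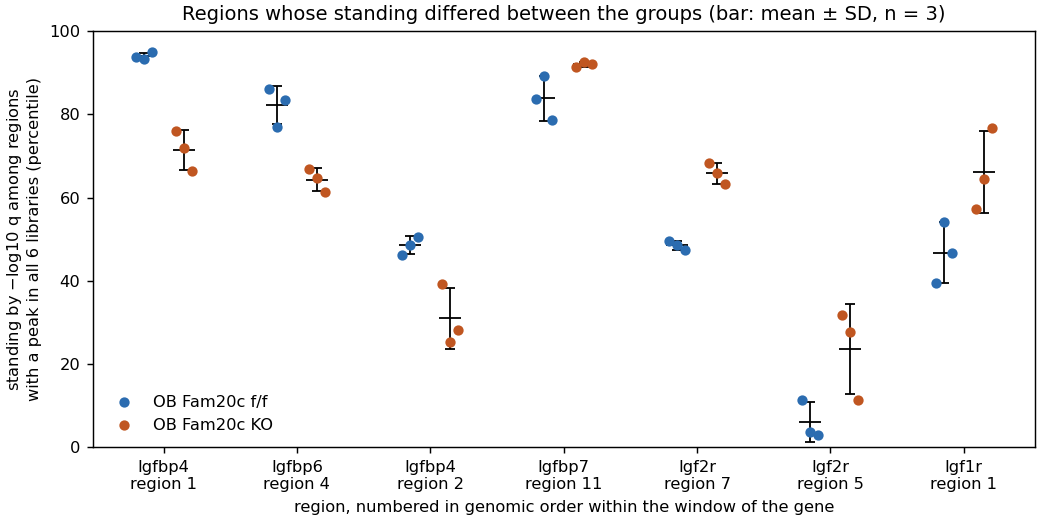
The shared standing (percentile by −log10 q among regions with a peak in all 6 libraries) is plotted for the 7 regions that passed in limma, with bars for the mean ± SD (n = 3). The groups do not overlap in 6 of the 7, and at Igf2r region 5 the lowest KO value (11.3) lies just below the highest f/f value (11.5). The regions were picked by the test on these same values, so the lack of overlap is no further support.

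Igfbp5, at chr1:72858065-72874865 on the minus strand, encodes the binding protein most abundant in bone matrix. Its 7 regions had a peak in 3, 4 and 4 in f/f and in 6, 7 and 3 in KO. The first 2 KO libraries lay above every f/f library and KO replicate 3 did not, so the groups overlapped over all 6 libraries (mean 3.67 ± 0.577 against 5.33 ± 2.08, SD, n = 3; exact permutation test, two-sided, p = 0.4). Every KO count above every f/f count was found for 0.121% of protein-coding genes with all libraries and for 4.43% without KO replicate 3, and in the latter setting Igfbp5 was the 1 gene of the 10. Regions 4 and 5 (chr1:72872582-72872944 and chr1:72873639-72874066), within 2 kb downstream of the start, had a peak only in KO replicates 1 and 2. Region 4 stood at 45.8 and 46.0, in the middle of those lists, and region 5 at 21.3 and 14.9. Next to them, region 3 (chr1:72870945-72872297) had the highest mean standing of the gene and a peak in every library, at 60.5, 50.2 and 67.1 in f/f and 69.0, 66.3 and 39.9 in KO, and its shared standing was 11.8 points higher in KO (SE 4.42, adjusted p = 0.0842), which did not pass with or without KO replicate 3 (12.7 points, adjusted p = 0.128).

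In the 20 to 500 kb on either side of Igfbp5, 45 regions had a peak in 23, 22 and 25 in f/f and in 40, 35 and 14 in KO. The first 2 KO libraries again lay above all f/f libraries, which they did not around Igf1 (25 regions, with a peak in 19, 19 and 22 in f/f and in 18, 19 and 4 in KO) or around Igf2. The part of the surroundings in the Igfbp5 counts was not tested.

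Igfbp2, at chr1:72824480-72852474 on the plus strand, encodes a binding protein made in many tissues and is the neighbour of Igfbp5. Its window held 4 regions, with a peak in 3, 3 and 3 in f/f and in 4, 3 and 2 in KO. Of these, 3 lie downstream of Igfbp2 and are the regions shared with Igfbp5. The 1 region of its own (chr1:72824599-72824798), 119 bp from the first start, had a peak only in KO replicate 1, at a standing of 4.20. The Igfbp2 gene thus held no region with a peak in 2 or more libraries.

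Igfbp3, at chr11:7206086-7215498 on the minus strand, encodes the main carrier of IGFs in serum. Its 7 regions had a peak in 2, 5 and 5 in f/f and in 4, 4 and 1 in KO, and the groups overlapped. Region 3 (chr11:7210261-7210822), 3101 bp into the gene, was the 1 region with a peak in all 6 libraries and had the highest mean standing. Its shared standing was 12.4, 16.1 and 15.7 in f/f and 7.43, 8.83 and 6.81 in KO. The difference did not pass (-7.04 points, limma adjusted p = 0.0838, and -5.13 points, adjusted p = 0.504, without KO replicate 3). By fold it was -16.3 points (adjusted p = 0.0890). Region 4 (chr11:7211181-7211658), just upstream of region 3 in the gene, had a peak only in KO replicates 1 and 2, at 13.4 and 16.2. Region 5 (chr11:7212036-7212477), the nearest to the listed start, had a peak in f/f replicate 2 at 4.14 and in KO replicates 1 and 2 at 19.7 and 26.3. Region 6 (chr11:7215564-7216733), 1641 bp upstream of the listed start, stood at 34.7, 43.6 and 47.8 in f/f and at 21.3 and 20.8 in KO replicates 1 and 2. Without KO replicate 3, which lacked it, this region was lower in KO by −log10 q (-15.4 points, SE 4.27, adjusted p = 0.0299) and by fold (-17.9 points, SE 3.81, adjusted p = 0.0373).

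For the rest of the pathway, 29 genes listed by role were read in the same way, among them other binding proteins, proteases that cut them, other receptors, mRNA-binding proteins and the adaptors and kinases downstream of the receptor. All 29 had a region, 256 distinct regions in all, of which 6 were also regions of the 10 genes. Of the 256, 96 had a peak in all 6 libraries (37.5%), 7 were f/f-only (2.73%, against 3.75% of all regions) and 0 were KO-only (0.179% of all regions). Over the other 5 libraries, 7 were f/f-only and 6 KO-only (2.75% and 2.35%, against 3.82% and 2.93%). The f/f-only regions included 1 each at Pappa, the protease that cuts IGFBP4 (standings 24.1, 32.3 and 32.7), at the insulin receptor-related receptor gene Insrr (29.1, 51.3 and 52.8), at the growth hormone receptor gene Ghr (14.4, 2.86 and 27.9), and at the mRNA-binding protein genes Igf2bp2 (23.8, 20.2 and 22.9) and Igf2bp3 (7.36, 15.0 and 25.0). Of the 96 shared regions, 15 had a higher shared standing in KO and 12 a lower one (15.6% and 12.5%, against 12.6% and 11.3%). Without KO replicate 3 a larger set of 146 regions was tested, of which 13 were higher and 22 lower (8.90% and 15.1%, against 11.6% and 10.9%).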

How the data were processed

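The data were 6 lists of ATAC-seq peaks, 1 per library, from the OB Fam20c f/f line (3 libraries) and the OB Fam20c KO line (3 libraries), grouped and numbered by the sample labels. By the methods of the study, the authors trimmed the reads, aligned them to mm10 with BWA and ran MACS2 2.1.2 with a q-value threshold of 0.05, and the lists hold each library separately. The treatment of duplicates and blacklisted regions is not given in the sources used here. The deposited lists give for each peak a fold over the local background of its own library (a ratio), a −log10 p and a −log10 q, and a browser score that was not used. These values can depend on the depth of a library, so they were ranked within a list and not compared between lists. The lists do not give read numbers, and the depth of the libraries was not used here. The shortest list limits what is shared by all 6.

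Peaks were merged where they shared 1 bp, and presence was read per library. Without KO replicate 3 the same merged regions were kept. When a library was left out, the shared standings were ranked and tested anew among the regions with a peak in every remaining list. Standings (percentiles by −log10 q or fold) of regions with a peak in all 6 lists were tested with limma 3.58.1 (eBayes with trend, group as the only term) in R 4.3.3, with Benjamini-Hochberg adjustment over all such regions at 0.05, and gene counts by the exact permutation test. The fit was tested on simulated data. Gene spans and the 250 bases before starts came from RefSeq tables of GRCm38.p6. All 10 members matched, with 14 starts. Exons and introns, peak sequences and protein sequences were not analysed here. Python 3.11.15, numpy 2.4.6, pandas 2.3.3 and scipy 1.17.1 were used.

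The members and lists were chosen with earlier results of these data known. The regions named are the group-specific ones, with and without KO replicate 3, those called by limma, those with the highest mean standing or nearest to the start of each gene, and a few neighbours named after their values were seen. At most 5 pathway genes with a group-specific region are named. The pathway list held Pdk1, a pyruvate dehydrogenase kinase gene, by mistake for the IGF pathway kinase gene Pdpk1. The alternatives were a minimum −log10 q of 5, equal numbers of peaks, 500-bp windows around summits, merging only at an overlap of 50% of the shorter peak, extensions of 5 or 50 kb, a peak in at least 2 of 3 libraries, normal scores, ranking within whole lists, the replicate number as a block, and each library left out in turn.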

Additional observations from a re-analysis of the deposited data

How the results depend on the processing

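The counts of group-specific regions at the IGF genes (3 f/f-only, 1 KO-only) were 3 and 1 under an overlap of 50% and windows of 500 bp, 2 and 1 with 5 kb, and 4 and 1 with 50 kb around the genes. With a −log10 q of 5 or more they were 3 and 0, the f/f-only regions being then all at Igf2. With equal numbers of peaks they were 1 (Igf1) and 1 (Igf2r), different regions from those over whole lists, among 38 regions (2.63% each, against 2.83% and 2.60% of all regions). With at least 2 of 3 libraries they were 7 and 6 (8.86% and 7.59%, against 8.54% and 2.98%). Leaving out each library gave 3 to 6 f/f-only regions, the most without f/f replicate 1 (7.69%, against 6.13%), with 5 without KO replicate 2 (6.49%, against 6.03%), and 1 to 6 KO-only, the most without KO replicate 3 (7.59%, against 2.93%). By −log10 q, 4 shared regions were higher and 3 lower in KO. Ranking within whole lists gave 0 and 0 (against 0.121% and 0.181% of all shared regions). There, 3 regions had an unadjusted p under 0.05 in limma (10.7%, against 12.4% of all shared regions). Normal scores gave 5 and 5 (17.9% each, against 13.6% and 12.4%). Leaving out each library gave 0 to 4 higher and 2 to 4 lower. There were 0 higher without f/f replicate 3 or KO replicate 2, against 7.62% and 8.07% of all shared regions. Without f/f replicate 1, KO replicate 1 or f/f replicate 2, 1 or 2 were higher (3.45%, 3.57% and 7.14%, against 10.0%, 10.1% and 8.45%). With each library left out, the share lower in KO was 6.90% to 10.7%, against 5.96% to 10.9% of all shared regions. By fold, leaving out each library gave 0 to 1 higher and 0 to 1 lower. Both were at 1 only without KO replicate 3 (2.38% each, against 3.4% and 2.93% of all shared regions). Leaving out any other library gave 0 over all shared regions too. Igfbp7 region 11 ranged from -0.90 points by fold without f/f replicate 3 (adjusted p = 0.929) to 5.28 without f/f replicate 2. The cause was not tested.

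Same-numbered libraries did not deviate together (r across regions of 0.0678, -0.105 and -0.124), so that the numbers are not taken as pairs. With the replicate block the difference in regions with a peak was -7.33 as without it, which groups of equal size fix in advance. The limma calls by −log10 q were then 4 higher and 2 lower (14.3% and 7.14%, against 10.8% and 9.49% of all shared regions). Igfbp4 region 2 was lost (adjusted p = 0.0587). The calls by fold were 0 and 0, as over all shared regions. Of 63 checks of the 7 called regions by −log10 q, 32 kept the call and direction and 31 kept only the direction, while Igfbp4 region 1 and Igfbp6 region 4 lost it only with whole-list ranks. Of 130 checks of counts per gene, 123 moved by no more than the spread between replicates. The replicate-block check of each gene is among them and could not move. The spread was pooled over both groups, and KO replicate 3 widened it at some genes (Igf1r, SD 5.51 in KO against 1 in f/f). Most of these checks could therefore hardly have moved. Presence or absence of a peak and a rank within a list are coarse readouts. Without counts of reads in peaks, the size of a change in accessibility cannot be given, 3 libraries against 3 cannot reach an exact p below 0.1 for 1 gene, and KO replicate 3, with the fewest peaks, decides which regions all 6 share.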
